A study of Homo sapiens with 4 samples.

Results

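Long intergenic non-coding RNAs (lincRNAs) that were well enough expressed to be compared gene by gene were examined in slow-cycling and unselected cells of MDA-MB-231, a human line of triple-negative breast cancer. Members were the rows of the deposited count table with the biotype lincRNA and a mean of at least 2 CPM (each gene's reads scaled to a common library total of 1e6) over the 4 libraries. Names that start with SNHG and the genes GAS5, ZFAS1 and DANCR, all hosts of small nucleolar RNAs, were left out. This went by the name in the count table, so hosts under other names could stay, such as LINC02001, which RefSeq names SNHG30. This rule kept 281 genes of 7629 lincRNA rows, in a table of 58735 genes. Of the 7629 rows, 3175 held a read in any library and 470 reached the mean of 1 CPM required for testing. The members were thus chosen by their measured level in these same libraries, and 3 of the 4 columns are slow-cycling libraries, so a lincRNA that was low in Bulk could enter through the slow-cycling libraries alone. The counts below therefore describe these members and are not evidence about lincRNAs in general. At the threshold, the weakest members were AC116345.1 (2.02 CPM on average), LINC01703 (2.03 CPM) and LINC02328 (2.06 CPM), and the strongest rows left out were LINC00858 (1.99 CPM), AC019069.1 (1.98 CPM) and AL133410.1 (1.97 CPM).

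LincRNAs are RNA polymerase II transcripts that lie between protein-coding genes and are not translated into a known protein. Some act as scaffolds, as NEAT1 does for the nuclear bodies called paraspeckles, some bind and titrate proteins, as NORAD does for Pumilio proteins, and others are the primary transcripts from which microRNAs are cut. Many are weakly expressed, restricted to few cell types and named only by the genomic clone or by a running LINC number.

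The 4 libraries came from MDA-MB-231 cells transduced with TetOn-H2BeGFP, a histone H2B fused to green fluorescent protein under a doxycycline-inducible promoter. All cells, the control included, received doxycycline at 5 µg/ml for 3 days and the dyes Claret and Violet, and were then kept without fresh label for 12 days, during which dividing cells dilute each label. The brightest 1% for Claret, for eGFP and for Violet gave the 3 slow-cycling samples, and Bulk cells passed the sorter with no gate on fluorescence. Each group holds 1 library, and whether the transduced cells are 1 clone or a pool is not given in the sources used here. Groups follow the sample titles, which name the columns of the tables, whereas the treatment field names another sort for every sample. No difference below has a replicate check: the tests compare the reads of 2 libraries, not the conditions, and the intervals cover counting error only.

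Total counts ran from 15508179 in Violet to 16976909 in Claret, so 3 reads, the upper limit that a count of 0 allows, amounted to 0.177 to 0.193 CPM. The fit of the cells to their label was mixed by marker. Of the 5 mesenchymal markers checked, VIM held 780 CPM in Bulk and 1030 to 1090 CPM in the sorted libraries, and CD44, AXL, SPARC and ITGB1 were present in all 4. Of the 7 genes listed as low or 0 in this line, PGR had 0 reads in every library, ESR1 3 to 7 and CDH1 0 to 3, but ERBB2 stood at 89.9 to 91.2 CPM, FOXA1 at 14.7 to 16.3, GATA3 at 4.66 to 5.92 and EPCAM at 1.81 to 3.84. The proliferation markers MKI67 and TOP2A fell from 423 and 887 CPM in Bulk to 43.4 to 59.0 and 157 to 215 CPM. The blood-cell marker PTPRC had 0 to 2 reads, and PECAM1, an endothelial marker, 3.40 to 5.61 CPM. The part of these markers in the lincRNA values was not tested.

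The members together took a small share of all reads, and that share was lowest in Bulk. They held 41633 reads in Bulk, 0.260% of the library (95% exact Clopper-Pearson interval 0.2572 to 0.2622%), 62882 reads or 0.370% in Claret, 60111 or 0.379% in eGFP and 64151 or 0.414% in Violet. The median member stood at 3.49 CPM in Bulk and at 4.59, 4.6 and 4.90 CPM in the sorted libraries, and 200, 273, 270 and 269 members reached 2 CPM in the same order. Membership required a mean of at least 2 CPM over libraries that are mostly slow-cycling, so the rule favours genes that are low in Bulk. The lower share, median and count at 2 CPM in Bulk are therefore partly built in. In bulk RNA, fewer cells that express a gene and less RNA per cell cannot be told apart. Because reads are counted per library, these shares do not give the amount of lincRNA per cell. NORAD, NEAT1 and MALAT1 alone took 30.4% of the member reads in Bulk and 31.9%, 34.1% and 37.3% in the sorted libraries.

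Most members were weakly expressed. Their median over the 4-library means was 4.36 CPM, 161 stayed under 5 CPM, 66 reached 10 CPM and 31 reached 20 CPM. The median annotated length was 2618 bases, against 5190 bases for the protein-coding genes tested, and 69 members consisted of 1 exon block. Median transcript GC content was 46.3%, against 48.3% over the genes tested. The members were spread over 23 chromosomes, with 25 on chromosome 1, 24 on chromosome 7, 21 on chromosome 2 and 17 each on chromosomes 5, 11 and 17. The nearest protein-coding start lay 32310 bases away in the median and within 10 kb for 98 members. Despite the biotype's name, 115 members overlapped a gene on the opposite strand and 83 a gene on the same strand, and 125 overlapped none. Whether the counting used strand is not given in the sources used here, so reads from overlapping genes on opposite strands may not be separable. In 67 members an exon overlapped an exon of the other strand, in none over as much as 50% of its exonic bases. In 14 members at least 50% of all 31-base words of the transcripts also occur in transcripts of other genes, so part of their counts is uncertain.

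Compared with Bulk, more members were higher than lower in each slow-cycling library. A gene was called when a two-sided exact binomial test on the reads of the 2 libraries gave a Benjamini-Hochberg adjusted p under 0.05 over 14585 genes and the TMM-scaled log2 ratio was at least 1 in size, that is, 2-fold. In Claret, 81 of the 281 members (28.8%) were called higher and 9 (3.20%) lower, while 11.2% and 6.72% of all genes tested were. In eGFP, 74 (26.3%) were higher and 12 (4.27%) lower, against 11.9% and 7.64%. In Violet, 82 (29.2%) were higher and 8 (2.85%) lower, against 11.6% and 6.91%. The members had a median log2 ratio of 0.48 (Claret), 0.42 (eGFP) and 0.56 (Violet), and that of all genes tested was -0.01, -0.01 and 0.01. Without the 2-fold requirement, 140 members were higher and 28 lower in Claret at an adjusted p under 0.05 by the same binomial test, where the background was 33.3% and 35.5%. The counts were 132 and 32 in eGFP, against 33.8% and 36.1%, and 148 and 22 in Violet, against 34.5% and 34.9%.

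**Figure D1:**
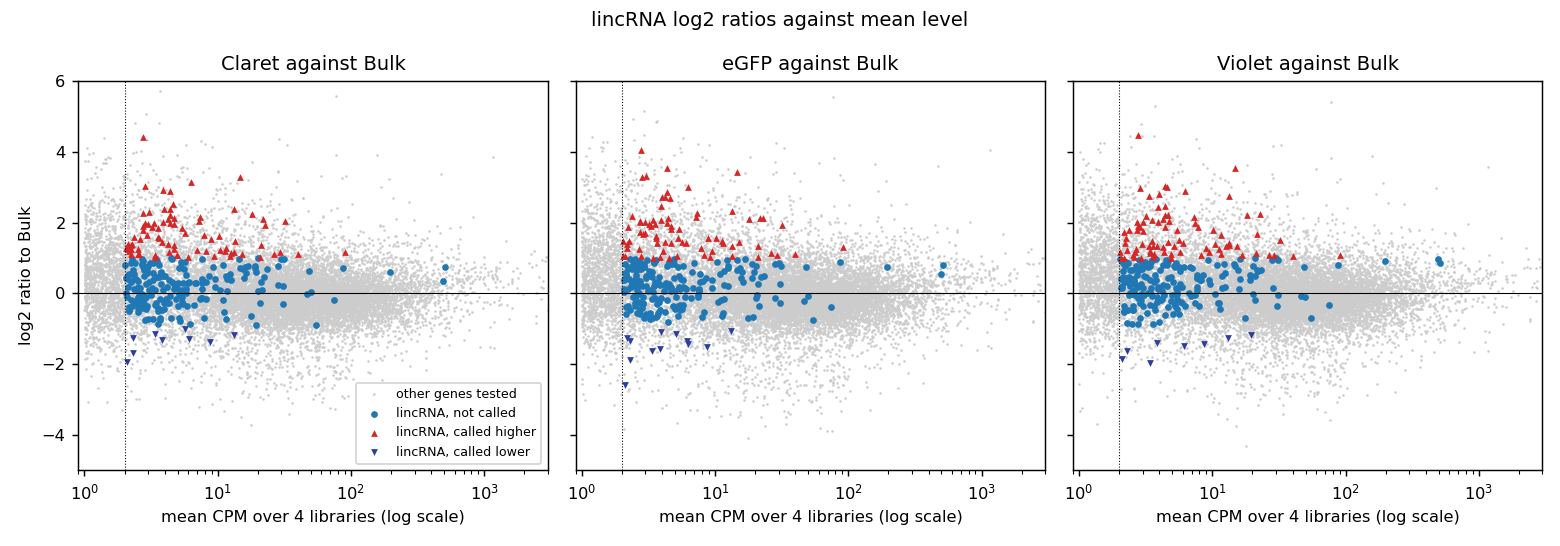
Log2 ratio to Bulk (y axis) against the mean level over the 4 libraries in CPM (x axis, log scale) for each slow-cycling library. Grey points are the other genes tested, blue circles are lincRNA members not called, red triangles members called higher and dark blue triangles members called lower; the dotted line marks the 2 CPM threshold. Members called higher (81, 74 and 82) lie at mean levels up to the 90.8 CPM of AC015813.1, and the 3 members with the highest CPM are all above 0 and below the 2-fold line.

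In all 3 slow-cycling libraries, 60 members (21.4%) were called higher and 7 (2.49%) lower, where 8.49% and 4.93% of all genes tested were. The 3 comparisons share the Bulk library, so being called in several of them is not independent evidence. In all, 114 members were called in at least 1 library and 167 in none. No member was called in opposite directions. The Bulk value lay below all 3 slow-cycling values in 181 members, above all 3 in 51 and between them in 49.

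Much of that count came from members that were weak in Bulk. Of the 281 members, 81 were under 2 CPM in Bulk and 38 of these were among the 60 called higher in all 3, whereas 6 members were under 2 CPM in the mean of the slow-cycling libraries. The 194 members at 2 CPM or more on both sides had 22 called higher (11.3%) and 5 lower (2.58%) in all 3, and their median log2 ratios were 0.26, 0.21 and 0.32. Of all genes that met the same condition, 4.95% were higher and 5.32% lower. When Bulk and the mean of the slow-cycling libraries were given equal weight in the rule, 269 members were kept, of which 52 were higher and 10 lower in all 3, and 6.80% and 5.38% of all genes kept by that mean were. Among the 31 members at 20 CPM or more, 8 (25.8%) were higher in all 3 and 0 lower, against 4.19% and 5.22% of all genes of that level.

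The level of a gene affects how often it is called, so other gene classes were taken at a mean of 2 to 20 CPM. In that range 250 lincRNA members had 52 called higher (20.8%) and 7 lower (2.80%) in all 3 libraries. Their median log2 ratios were 0.47 (Claret), 0.41 (eGFP) and 0.49 (Violet). Protein-coding genes of that range were higher in 12.5% and lower in 5.83%, with medians of 0.07, 0.05 and 0.09. Antisense RNAs were higher in 15.1% and lower in 1.34%, with medians of 0.33, 0.30 and 0.42, and genes of the biotype processed transcript were higher in 19.2% and lower in 2.56%, with medians of 0.61, 0.60 and 0.57. The differences between these classes were not tested, and the lincRNAs are not set apart by them from the other non-coding classes.

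**Figure D2:**
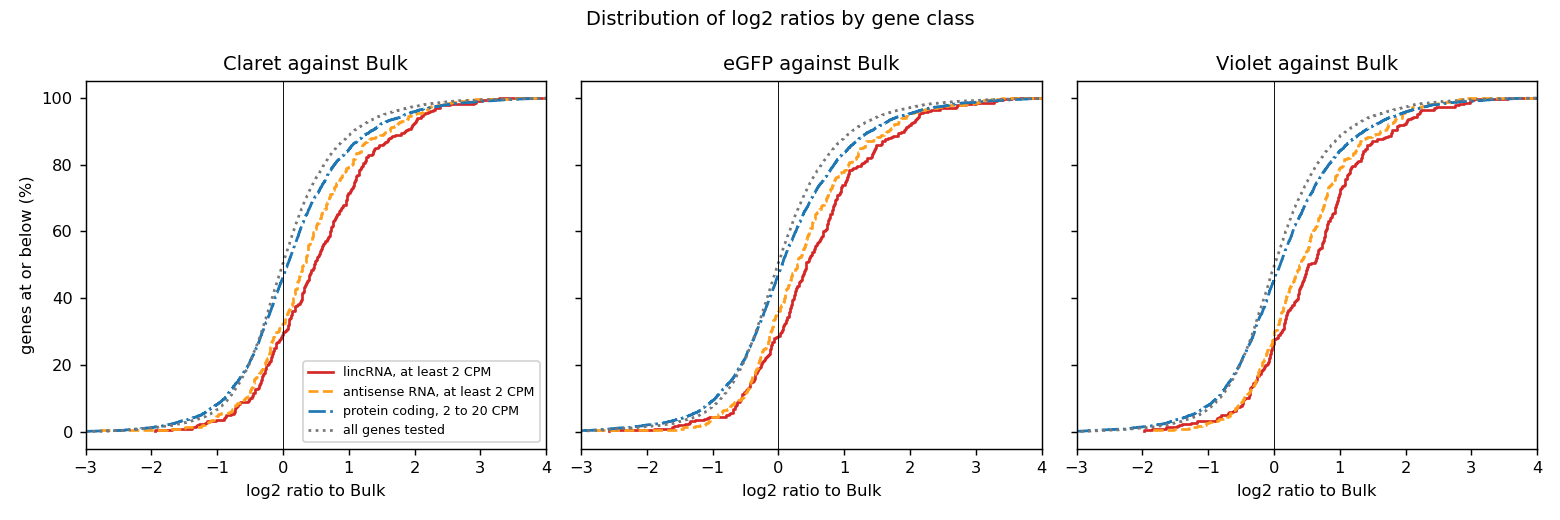
Share of genes at or below each log2 ratio to Bulk (y axis, percent; x axis, log2 ratio) for lincRNA members, antisense RNAs of at least 2 CPM, protein-coding genes of 2 to 20 CPM and all genes tested, in each slow-cycling library. Of the curves drawn, that of the lincRNAs lies furthest right over most of the range, with medians of 0.48, 0.42 and 0.56, next to the antisense RNAs. The curves of protein-coding and all genes cross 50% near 0. Genes of the biotype processed transcript are not drawn.

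The list of lincRNAs with a well-studied molecular role, mostly in the nucleus or on chromatin, had 16 names. Of these, 14 were in the table, 6 of them with the lincRNA biotype, and 4 were members. The absent names, LINC00657 and CHASERR, are other names of NORAD and LINC01578. NORAD, NEAT1 and MALAT1 were the best-covered members of all, LINC-PINT was a weak one, and none of the 4 was called. NORAD (ENSG00000260032, chromosome 20:36045622-36050960 in GRCh38) is a cytoplasmic lincRNA that binds Pumilio proteins and is known to be induced by DNA damage. It held 5153 reads (Bulk), 9235 (Claret), 9114 (eGFP) and 9332 (Violet). All 3 sorted libraries were above Bulk and close to each other, with log2 ratios of 0.73 (95% interval 0.68 to 0.78), 0.81 (0.76 to 0.86) and 0.86 (0.81 to 0.91). At a mean of 94.9 FPKM (counts scaled by transcript length and library total), it had the highest level per length of all members, although 51.5% of its 31-base words recur in other genes.

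NEAT1 (ENSG00000245532, chromosome 11:65422774-65445540), the architectural RNA of paraspeckles, held 5458 reads (Bulk), 7509 (Claret), 7970 (eGFP) and 10748 (Violet). Its log2 ratios to Bulk were 0.35 (0.30 to 0.40), 0.53 (0.48 to 0.58) and 0.98 (0.93 to 1.03), so the Violet library was the highest, and its interval did not overlap those of the other sorts. Scaling by library size put NEAT1 in Violet over the threshold, at 1.03. MALAT1 (ENSG00000251562, chromosome 11:65497688-65506516), an abundant RNA of nuclear speckles that lies downstream of NEAT1 on the same strand, held 2027, 3291, 3421 and 3838 reads in Bulk, Claret, eGFP and Violet. Its log2 ratios ran from 0.59 (0.51 to 0.67) in Claret through 0.74 (0.66 to 0.82) in eGFP to 0.92 (0.84 to 1.00) in Violet. By log2 ratio, the order of the libraries was the same for NEAT1, MALAT1 and NORAD, with Bulk lowest and Violet highest. For NORAD the sorted libraries lay close together. LINC-PINT, a p53-induced RNA known to bind the Polycomb complex PRC2, had 41, 90, 77 and 81 reads and log2 ratios of 0.99, 0.87 and 0.95, just under the threshold and with wide intervals (0.48 to 1.60 in Claret). Scaling by library size put it over the threshold in Claret, at 1.02, as the GC correction did, at 1.04. These values cover the lincRNA entry only. A separate entry named LINC-PINT, of the biotype processed transcript and so no member, held 38, 63, 44 and 64 reads. Its log2 ratios were lower, at 0.60, 0.19 and 0.72.

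FTX, a long gene of the X-inactivation centre that also carries microRNAs, was the member of the 2-gene list for that locus. It held 518, 860, 877 and 861 reads in Bulk, Claret, eGFP and Violet, with log2 ratios of 0.62, 0.74 and 0.73, none of them called. Opposite-strand exons cover 44.3% of its exonic bases. JPX, the other gene of the list, averaged 1.22 CPM and was no member.

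Of the 11 names listed for p53 and stress, where LINC01021 is another name of PURPL, 9 were in the table, 8 with the lincRNA biotype. The 4 members were NEAT1, LINC-PINT, PURPL and TP53TG1. PURPL, a p53 target that in turn lowers p53, held 118 reads (Bulk), 179 (Claret), 187 (eGFP) and 258 (Violet). It was called higher in Violet alone, at a log2 ratio of 1.12 (0.81 to 1.46), and had 0.49 and 0.64 in Claret and eGFP. TP53TG1, another p53 target, held 19, 57, 26 and 36 reads and was called higher in Claret alone, at 1.39 (0.71 to 2.31). Neither gene was called between the slow-cycling libraries, so these values do not show that the sorts differed. Opposite-strand exons cover 32.6% of the exonic bases of TP53TG1.

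The cancer-associated list held 36 names, among them LINC00152 for CYTOR, and 30 of the names were in the table. The lincRNA biotype was held by 19 rows, among them a second row of LINC00941 with 0 reads in every library. In all, 7 of the listed genes were members. CYTOR (LINC00152), which is linked to growth and migration of tumour cells, held 799, 890, 771 and 748 reads, with log2 ratios of 0.05 (-0.09 to 0.19), -0.06 (-0.21 to 0.08) and -0.09 (-0.24 to 0.05). All 3 intervals include 0 and exclude a 2-fold difference. Its near copy on the same chromosome, MIR4435-2HG, held 776, 818, 674 and 734 reads, with log2 ratios of -0.03, -0.22 and -0.08. The copies share much of their sequence, with 29.2% and 32.1% of their 31-base words found in other genes.

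PVT1, the lincRNA next to the oncogene MYC, held 262, 387, 367 and 403 reads, with log2 ratios of 0.45, 0.47 and 0.62. MYC itself had log2 ratios of 0.83, 0.79 and 0.68, and neither was called. LINC01116, which lies near the HOXD genes, was the only member of this list below Bulk in all 3 sorts, with 390 reads in Bulk against 267, 243 and 241 in the others, at -0.65, -0.69 and -0.69. LINC00973 and LINC00941 had log2 ratios of 0.48 to 0.69 and 0.25 to 0.48. LINC00460 held 43, 106, 53 and 76 reads and was called higher in Claret alone, at 1.16 (0.67 to 1.74). CASC9 was close to the membership threshold, with 30 to 48 reads per library.

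Ranked by level per length, NORAD was followed by BX640514.2 (a mean of 47.6 FPKM), MANCR (38.8 FPKM), SFTA1P (35.2 FPKM), LINC00973 (24.1 FPKM), MALAT1 (22.0 FPKM), NEAT1 (21.5 FPKM) and AP005233.2 (20.5 FPKM). SFTA1P, a non-coding relative of a surfactant-associated gene, was the one of these 8 called higher in all 3 libraries. It stood at 19.2 FPKM in Bulk and at 42.4, 39.9 and 39.5 FPKM in the sorts, with log2 ratios on the count scale of 1.16 (0.94 to 1.38), 1.07 (0.86 to 1.31) and 1.08 (0.87 to 1.31). MANCR, named as a mitotically associated RNA, stood at 45.6 FPKM in Bulk and at 39.7, 34.3 and 35.4 FPKM in the sorted libraries. Its log2 ratios of -0.18, -0.38 and -0.32 were small beside those of MKI67, which were -2.87, -3.31 and -2.89. BX640514.2 had log2 ratios of 0.97, 0.85 and 0.98 and AP005233.2 0.98, 0.54 and 0.50, none called. With library-size scaling, BX640514.2 reached 1.03 in Violet and AP005233.2 reached 1.002 in Claret, both over the threshold.

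Some microRNA host genes were called in all 3 slow-cycling libraries. A host transcript carries one or more hairpins that are cut out to give mature microRNAs, which then silence messages that pair with their seed. Of 46 hosts in the table, 13 were members, of which 3 (23.1%) were called higher and 1 (7.69%) lower in all 3 libraries and 9 in none. The share called higher was close to the 21.4% of all members, and 8.49% and 4.93% of all genes tested were called higher and lower. By position, 21 members span a microRNA of the RefSeq sequence set used here, whatever their name. Of these, 4 were higher, 2 lower and 15 called in none. Members that span only microRNAs outside that set are not counted. The best-known mature microRNAs of the 4 called hosts are shown, with those of the same set from every member that share a seed with them. The seed decides which messages a microRNA can bind. Sequences are from RefSeq (GRCh38.p14), 5′ to 3′, with the seed (bases 2 to 8) in capitals.
hsa-miR-29c-3p (MIR29B2CHG): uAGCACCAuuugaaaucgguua
hsa-miR-29b-3p (MIR29B2CHG, AC016831.6 and LINC-PINT): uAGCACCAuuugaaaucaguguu
hsa-miR-29a-3p (AC016831.6): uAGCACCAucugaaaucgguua
hsa-let-7b-5p (MIRLET7BHG): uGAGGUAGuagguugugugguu
hsa-let-7a-5p (MIRLET7BHG): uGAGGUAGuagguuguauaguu
hsa-let-7i-5p (AC048341.1): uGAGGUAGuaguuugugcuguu
hsa-let-7c-5p (MIR99AHG): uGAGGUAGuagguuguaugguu
hsa-miR-4458 (MIR4458HG): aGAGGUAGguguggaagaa
hsa-miR-22-3p (MIR22HG): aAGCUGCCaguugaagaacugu
hsa-miR-137-3p (MIR137HG): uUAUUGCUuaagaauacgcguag
The miR-29 sequences share 1 seed, and the let-7 sequences share another with miR-4458, while miR-22-3p and miR-137-3p stand alone. The libraries measured host transcripts, not mature microRNAs, whose levels were not measured.

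MIR29B2CHG (ENSG00000203709, chromosome 1:207801518-207879096, minus strand), host of miR-29b-2 and miR-29c, held 101 reads (Bulk), 424 (Claret), 453 (eGFP) and 484 (Violet), or 6.30, 25, 28.5 and 31.2 CPM. It was 3.84-fold to 4.72-fold higher than in Bulk, with log2 ratios of 1.94 (1.65 to 2.29), 2.13 (1.84 to 2.48) and 2.24 (1.95 to 2.59). The miR-29 family is known for silencing collagens and other matrix genes. The second miR-29 locus lies on chromosome 7 under AC016831.6 (chromosome 7:130791264-131110161), a clone-named lincRNA that spans the hairpins of miR-29a and miR-29b-1. It held 44, 99, 123 and 121 reads and was called higher in all 3 libraries, at 1.03 (0.54 to 1.61), 1.43 (0.96 to 2.0) and 1.42 (0.95 to 1.99). AC016831.6 was picked out after its values were seen. AC016831.6 overlaps LINC-PINT, which also spans miR-29b-1 and was not called, on the same strand, and 42.0% of its 31-base words occur in other genes. Reads of the locus thus cannot be assigned to AC016831.6 with certainty.

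MIRLET7BHG (ENSG00000197182, chromosome 22:46053869-46113928), host of let-7a-3 and let-7b, held 113 reads (Bulk), 263 (Claret), 315 (eGFP) and 287 (Violet). Its log2 ratios were 1.10 (0.79 to 1.44), 1.45 (1.15 to 1.79) and 1.33 (1.03 to 1.67). The GC correction put the Claret value under the threshold, at 0.93. The let-7 family is best known as a brake on growth genes such as HMGA2 and RAS. AC048341.1, a member that spans let-7i, was named after its values were seen. It held 82, 96, 94 and 98 reads and was not called, at 0.12 (-0.32 to 0.56), 0.18 (-0.26 to 0.63) and 0.25 (-0.18 to 0.70). The other members listed above with the let-7 seed lay below Bulk without a call. MIR99AHG, host of let-7c, had log2 ratios of -0.13, -0.58 and -0.14, and MIR4458HG had -0.69, -0.31 and -0.37.

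MIR22HG (ENSG00000186594, chromosome 17:1711493-1717174), host of miR-22 and known to respond to chemical stress, held 158 reads (Bulk), 443 (Claret), 409 (eGFP) and 350 (Violet). It was 2.20-fold to 2.58-fold higher, with log2 ratios of 1.37 (1.11 to 1.65), 1.35 (1.09 to 1.63) and 1.14 (0.87 to 1.43). MIR137HG (ENSG00000225206, chromosome 1:97933474-98049863) went the other way. It held 265 reads in Bulk against 108, 92 and 96 in Claret, eGFP and Violet, a fall of 2.61-fold to 2.87-fold. Its log2 ratios were -1.39 (-1.74 to -1.07), -1.52 (-1.90 to -1.19) and -1.45 (-1.82 to -1.12). MiR-137 is best known from neurons. AC016205.1, which spans miR-924 and a copy of miR-5583, was the other host by position called lower in all 3 libraries, at -1.69 (-2.48 to -1.10), -1.89 (-2.78 to -1.27) and -1.64 (-2.44 to -1.04).

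The 9 other hosts on the list, MIR4435-2HG among them, were not called. MIR503HG held 163, 293, 249 and 323 reads, with log2 ratios of 0.73, 0.59 and 0.98 (1.03 in Violet with library-size scaling, over the threshold), and MIR222HG, host of miR-221 and miR-222, held 140, 222, 231 and 207 reads, with 0.55, 0.70 and 0.56. Both were above Bulk in all 3 sorts. MIR210HG, host of the hypoxia-induced miR-210, held 357, 318, 345 and 312 reads, with log2 ratios of -0.27 (-0.50 to -0.05), -0.06 (-0.28 to 0.16) and -0.19 (-0.42 to 0.03). The remaining 5 (MIR3681HG, MIR548XHG, MIR4458HG, MIR4527HG and MIR99AHG) held 33 to 172 reads per library, and their ratios ran from -0.69 to 0.76.

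**Figure D3:**
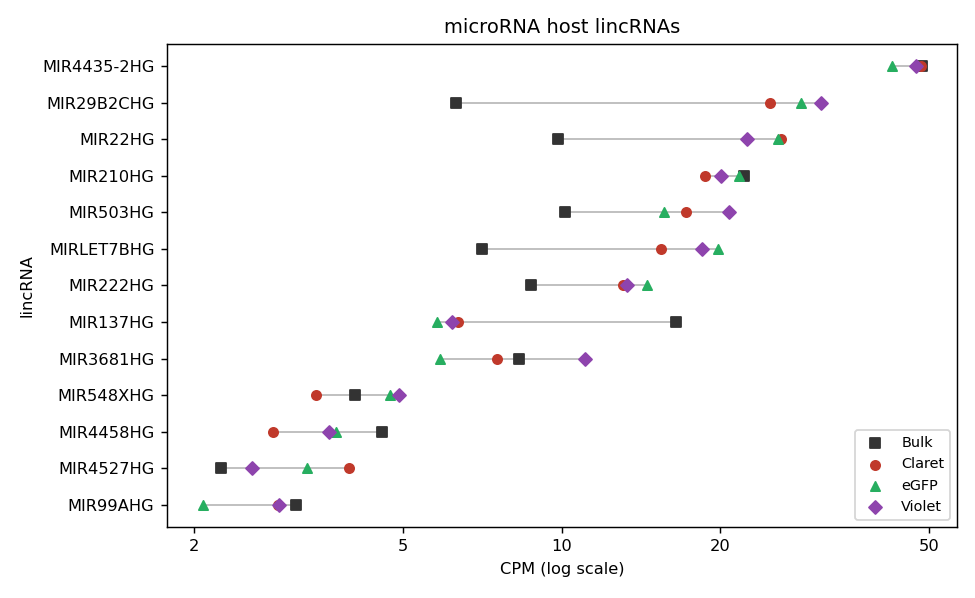
Level in CPM (x axis, log scale) of the 13 microRNA host lincRNAs in Bulk (squares), Claret (circles), eGFP (triangles) and Violet (diamonds), 1 library each; grey lines span the 4 values. Bulk lies far left of the other libraries for MIR29B2CHG (6.30 CPM), MIR22HG (9.85 CPM) and MIRLET7BHG (7.05 CPM) and far right for MIR137HG (16.5 CPM).

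The members with the largest differences upward were mostly clone-named or numbered genes without a described function. AL365181.2 (ENSG00000272068, chromosome 1:156637783-156641004) was the best covered of them, with 26 reads in Bulk against 292, 299 and 326 in Claret, eGFP and Violet. It was 9.76-fold to 11.7-fold higher, with log2 ratios of 3.29 (2.80 to 4.02), 3.42 (2.93 to 4.15) and 3.55 (3.07 to 4.29). Its start lies 386 bases from that of BCAN, the gene of the matrix proteoglycan brevican, on the other strand. BCAN was called higher too, from 0.998 CPM in Bulk to 2.65, 3.84 and 3.16 CPM, at 1.28, 1.80 and 1.51.

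AL022322.1 had the highest fitted ratios, but rests on 1 read in Bulk, against 66, 47 and 64 in the sorts. Its fitted log2 ratio in Violet was 4.48, and the interval of the read ratio reached from 3.47 to 11.33. LINC02454 held 14 reads in Bulk against 149, 127 and 116 in the sorted libraries, with log2 ratios of 3.14, 3.00 and 2.89. The nearest protein-coding start is that of HMGA2, a chromatin protein gene, at a distance of 221262 bases, and HMGA2 had log2 ratios of -0.09, 0.04 and -0.13. LINC01583 held 8, 78, 116 and 80 reads, and AC008440.3, whose start lies 1460 bases from that of MYADM, held 5, 59, 66 and 53. LINC01844 (13, 82, 107 and 80 reads), LINC00887 (11, 71, 84 and 89) and AP001453.3 (11, 104, 70 and 68) were called higher at log2 ratios from 2.38 to 2.93. Opposite-strand exons cover 38.6% of the exonic bases of AP001453.3. Bulk was the lowest library in each of these genes, by a wide margin.

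AL034417.2 (ENSG00000238290, chromosome 1:8026738-8122702) starts 430 bases from ERRFI1, a feedback inhibitor of the EGF receptor, and runs away from it. It held 12 reads in Bulk against 85, 89 and 109 in Claret, eGFP and Violet, with log2 ratios of 2.53 (1.84 to 3.72), 2.69 (2.0 to 3.88) and 2.99 (2.32 to 4.18). ERRFI1 was called higher as well, from 577 CPM in Bulk to 1632, 1868 and 1748 CPM, at 1.48, 1.67 and 1.55. AL035665.1 held 45, 262, 234 and 313 reads, with log2 ratios of 2.38 (1.97 to 2.92), 2.32 (1.90 to 2.86) and 2.75 (2.35 to 3.28).

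All 7 members called lower in all 3 libraries fall under the naming rule. MIR137HG is given above. AP003392.4 had the lowest ratios in Claret and eGFP, with 81 reads in Bulk against 21, 12 and 21 in Claret, eGFP and Violet, at -1.95 (-2.82 to -1.35), -2.58 (-3.78 to -1.88) and -1.85 (-2.71 to -1.24). It starts 138 bases from CCDC84, which had log2 ratios of -0.54, -0.37 and -0.61 and was not called. AC016205.1 held 79, 25, 20 and 24 reads, and AL713998.1 117, 49, 38 and 43. LINC01963 held 182 reads in Bulk against 78, 71 and 64 in the sorted libraries, with log2 ratios of -1.31, -1.35 and -1.48. XRCC5, its nearest protein-coding gene and a subunit of the Ku DNA-repair complex, was called lower too, at -1.04, -1.12 and -1.22. AC145207.5 held 108, 51, 34 and 26 reads, with log2 ratios of -1.16, -1.62 and -1.97, the lowest of any member in Violet. AC125807.2, the best covered of the 7, held 359, 169, 173 and 149 reads, with log2 ratios of -1.18 (-1.47 to -0.93), -1.06 (-1.34 to -0.80) and -1.26 (-1.55 to -0.99).

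**Figure D4:**
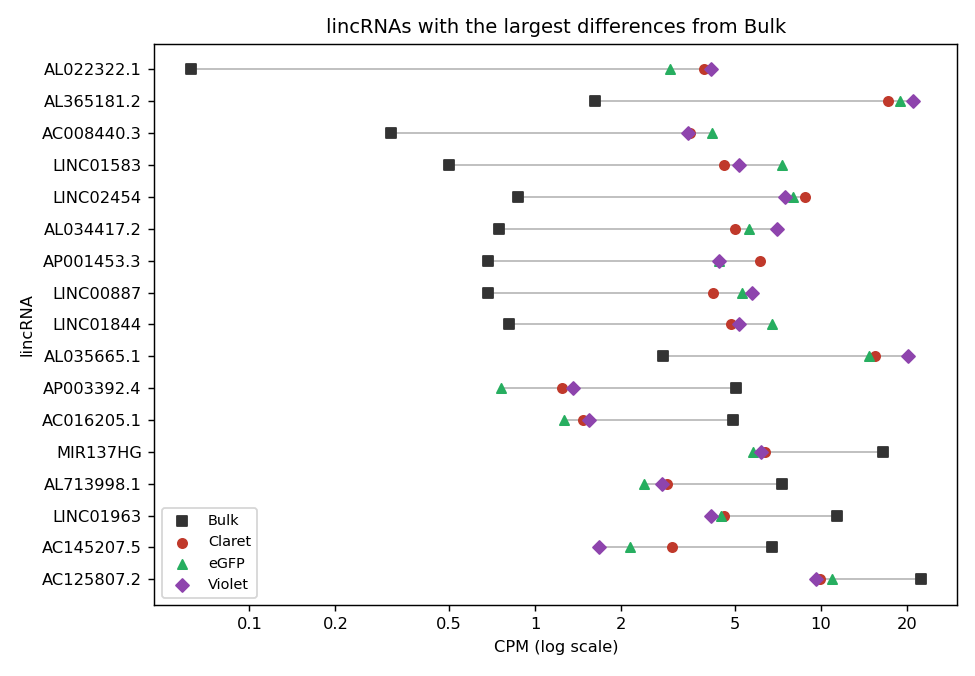
Level in CPM (x axis, log scale) of the 10 members with the largest differences upward among those called higher in all 3 slow-cycling libraries (upper rows) and of the 7 called lower in all 3 (lower rows), with 1 point per library and a grey line over the 4 values. The 3 slow-cycling points lie on the same side of Bulk in each row, as the choice of rows requires, and are spread out in some, such as AC145207.5 and AP003392.4. Bulk values range from 0.0624 CPM for AL022322.1 to 22.4 CPM for AC125807.2.

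Some members above 10 CPM, picked out after their values were seen, were also called higher in all 3 libraries. AC015813.1 held 728, 1759, 1823 and 1542 reads in Bulk, Claret, eGFP and Violet, the most of the 60, and was 2.12-fold to 2.48-fold higher. EPB41L4A-AS1 held 170, 758, 659 and 483 reads, with log2 ratios of 2.04, 1.93 and 1.5, but 49.6% of its exonic bases lie under exons of the opposite strand. LINC00662 held 76, 395, 335 and 360 reads and was 4.28-fold to 4.73-fold higher. AC004585.1 held 105, 489, 466 and 342 reads, and TNS4, the gene of a focal-adhesion protein and its nearest protein-coding neighbour at 15429 bases, was called higher as well, at 2.36, 2.02 and 2.50.

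By kind of name, calls were not confined to well-described genes or to unnamed ones. Of 132 clone-named members, 29 were higher and 5 lower in all 3 libraries, or 22.0% and 3.79%, where 8.49% and 4.93% of all genes tested were. The counts were 15 and 1 of 75 LINC-numbered members, 8 and 0 of 29 named after a neighbouring gene, 5 and 0 of 32 with a name of their own, and 3 and 1 of the 13 microRNA hosts.

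LincRNAs often start close to a protein-coding gene and run away from it, so that both share a promoter region. Among the members, 47 started within 2000 bases upstream of the nearest protein-coding start, on the other strand. Of these, 13 (27.7%) were called higher and 1 (2.13%) lower in all 3 libraries, against 20.1% and 2.56% of the 234 other members and 8.49% and 4.93% of all genes tested. The lincRNAs had a median log2 ratio of 0.75 (Claret), 0.61 (eGFP) and 0.46 (Violet), and that of their neighbours was -0.13, -0.13 and -0.23. The lincRNA had the higher ratio in 39, 38 and 39 of the 47 pairs. In Claret 17 of the lincRNAs and 4 of the neighbours were called higher, in eGFP 13 and 4, and in Violet 15 and 3, where 11.2%, 11.9% and 11.6% of all genes tested were. Across the 47 pairs, Pearson's r between the log2 ratio of the lincRNA and that of its neighbour came to 0.37 (Claret), 0.44 (eGFP) and 0.48 (Violet) (Spearman's rho 0.29, 0.32 and 0.29). This is a description across pairs from the same libraries, and the neighbours, being mostly stronger genes, have smaller counting error. Only the lincRNAs had to pass the membership rule, which favours genes that are low in Bulk, so a higher lincRNA ratio is partly built in. The 234 other members had medians of 0.47, 0.42 and 0.59, so an upward median was not particular to these pairs.

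The pairs differed among themselves, as shown by examples chosen after their values were seen. PICART1, which starts 229 bases from the integrin gene ITGA3, held 18, 97, 78 and 90 reads, with log2 ratios of 2.20, 1.99 and 2.21. ITGA3 had 0.92, 1.00 and 0.97, with a call in eGFP alone. HRAT92, 95 bases from the growth-factor gene PDGFA, held 20, 91, 95 and 78 reads, with 1.98, 2.13 and 1.87, beside 1.06, 0.99 and 0.97 for PDGFA. In both pairs, as for AL365181.2 and AL034417.2, lincRNA and neighbour lay above Bulk together. The opposite held for PAXIP1-AS1, which held 68, 170, 147 and 145 reads and was called higher at 1.19, 1.08 and 1.07. Its neighbour PAXIP1, a DNA-damage response gene whose start is 364 bases away, was called lower at -1.24, -1.28 and -1.39. EIF3J-DT was called higher at 1.07, 1.18 and 1.16, while EIF3J, a translation initiation factor gene, had -0.72, -0.76 and -0.83 and was not called.

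**Figure D5:**
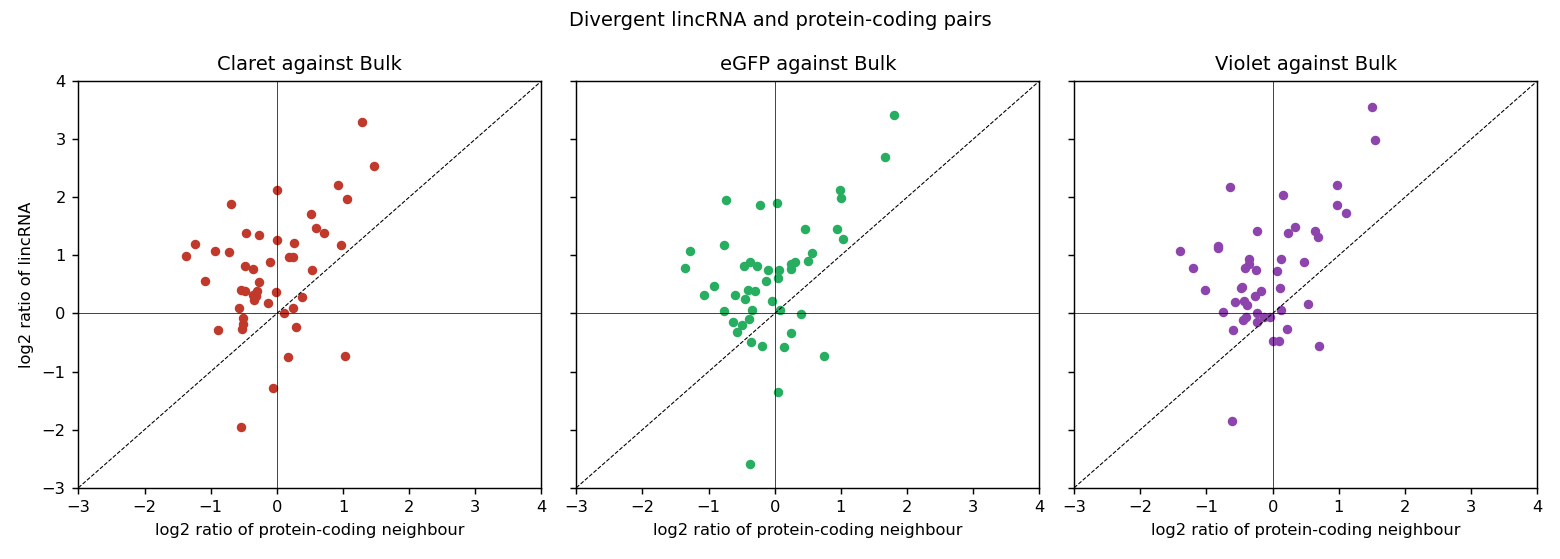
Log2 ratio to Bulk of 47 lincRNA members (y axis) against that of the protein-coding gene they start next to (x axis), 1 point per pair, for each slow-cycling library; the dashed line marks equal ratios. In 39, 38 and 39 of the 47 pairs the point lies above the line, and the pair AL365181.2 with BCAN lies at the top right of each panel.

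The series is titled after AP-1, the family of FOS and JUN dimers that binds the letters TGANTCA, so members' promoters were searched for that motif on both strands. RefSeq promoters (GRCh38.p14, 250 bases before to 50 after a start) matched 145 of the 281 members by name or identifier, among them 33 of the 60 called higher and 3 of the 7 called lower. The motif was in 19 of the 145 (13.1%), against 7.76% of all 27305 promoters in the table, 10.5% of 11462 promoters of long non-coding RNAs and 5.75% of 15842 protein-coding ones. It was in 6 of the 33 members called higher in all 3 libraries (18.2%) and in 11 of 87 called in none (12.6%). Of the 145 RefSeq starts, 90 lie within 100 bases of that in the count table, and 12 of these promoters (13.3%) held the motif. The others belong to a more distant start, which for LINC01358, among the 6, is 86833 bases away. The stricter letters TGACTCA, which are part of the former and were added after the data were seen, were in 3 of the 33 (9.09%), 9 of the 87 (10.3%) and 4.92% of all promoters. These shares were not tested, a match is not a bound site, and binding was not measured.

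Among the other motifs, the cAMP response element TGACGTCA and the ATF4 element TGATGNAA were in 0 of the 33 promoters, against 1.98% and 3.67% of all promoters. The cell-cycle homology element TTTGAA was in 3 of the 33 (9.09%), against 15.4% of all, and the NF-Y box CCAAT in 12 (36.4%), against 35.7%. Absence of these letters from 300 bases says nothing about the factors themselves.

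The 5 promoters below are those of all members called higher in all 3 libraries that hold the AP-1 letters and whose RefSeq start lies within 100 bases of that in the count table. The motif is in capitals, and each sequence reads 5′ to 3′ along the strand of the lincRNA.
LINC00702 promoter (chr10:4243863-4244162, minus strand): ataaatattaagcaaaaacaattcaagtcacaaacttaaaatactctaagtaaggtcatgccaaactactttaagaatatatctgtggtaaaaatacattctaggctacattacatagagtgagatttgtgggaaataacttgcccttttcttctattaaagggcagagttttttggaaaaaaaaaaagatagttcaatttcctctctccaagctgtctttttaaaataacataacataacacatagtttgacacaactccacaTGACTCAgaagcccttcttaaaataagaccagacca
EIF3J-DT promoter (chr15:44536874-44537173, minus strand): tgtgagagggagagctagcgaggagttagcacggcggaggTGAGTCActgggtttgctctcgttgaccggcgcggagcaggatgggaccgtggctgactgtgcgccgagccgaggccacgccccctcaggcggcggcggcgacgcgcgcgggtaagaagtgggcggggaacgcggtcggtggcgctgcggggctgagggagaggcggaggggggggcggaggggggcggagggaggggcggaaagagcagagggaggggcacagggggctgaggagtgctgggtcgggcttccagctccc
OLMALINC promoter (chr10:100373326-100373625, plus strand): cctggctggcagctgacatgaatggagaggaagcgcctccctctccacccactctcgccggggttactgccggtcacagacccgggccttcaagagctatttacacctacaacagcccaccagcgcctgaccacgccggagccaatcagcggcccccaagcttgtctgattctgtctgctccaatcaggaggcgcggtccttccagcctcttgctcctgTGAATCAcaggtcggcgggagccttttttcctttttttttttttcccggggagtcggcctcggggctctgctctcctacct
AC008014.1 promoter (chr12:46383426-46383725, plus strand): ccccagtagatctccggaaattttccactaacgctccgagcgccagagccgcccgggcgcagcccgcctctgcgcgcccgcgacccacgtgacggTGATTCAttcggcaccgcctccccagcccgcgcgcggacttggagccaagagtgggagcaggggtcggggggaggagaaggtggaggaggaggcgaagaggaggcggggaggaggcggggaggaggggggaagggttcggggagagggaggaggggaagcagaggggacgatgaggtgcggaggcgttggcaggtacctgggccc
AC025419.1 promoter (chr12:65642323-65642622, minus strand): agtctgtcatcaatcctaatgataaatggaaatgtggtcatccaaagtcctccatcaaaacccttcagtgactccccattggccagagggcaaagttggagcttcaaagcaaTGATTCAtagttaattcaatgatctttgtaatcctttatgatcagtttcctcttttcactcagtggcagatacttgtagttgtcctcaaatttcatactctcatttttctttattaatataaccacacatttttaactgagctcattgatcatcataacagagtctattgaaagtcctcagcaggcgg
LINC00702 held 99 reads in Bulk against 244, 257 and 256 in Claret, eGFP and Violet, at log2 ratios of 1.18, 1.35 and 1.35. EIF3J-DT held 77, 176, 179 and 174 reads, and OLMALINC, known from oligodendrocytes, held 77, 206, 212 and 246, at 1.29, 1.43 and 1.65. AC008014.1 held 24, 80, 76 and 54 reads, at 1.55, 1.57 and 1.11, and AC025419.1 held 21, 86, 69 and 56, at 1.83, 1.62 and 1.34. Bulk was the lowest library for all 5. The LINC00702 promoter is rich in A and T, with 31.3% GC, while that of EIF3J-DT has 72.7% GC.

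The slow-cycling libraries differed little from each other at these genes. Between Claret and eGFP, 0 members were called higher and 2 lower in Claret, where 0.315% and 0.446% of all genes tested were. Between Claret and Violet, 1 was higher and 1 lower in Claret, against 0.219% and 0.583%, and between eGFP and Violet, 2 were higher and 3 lower in eGFP, against 0.288% and 0.727%. The standard deviation of the members' log2 ratios was 0.337, 0.334 and 0.365 between slow-cycling libraries, and 0.935, 0.984 and 0.928 against Bulk. Over all genes tested it was 0.290, 0.286 and 0.298, and 0.856, 0.903 and 0.864.

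These calls fell on 6 members. FAM157C held 38 reads (Bulk), 30 (Claret), 48 (eGFP) and 109 (Violet), and was called higher in Violet than in each of the other 3 libraries. Most of its sequence (83.6% of the 31-base words) recurs in other genes, so its counts are uncertain. LINC02475 held 23, 35, 104 and 55 reads, highest in eGFP, and AL031118.1 8, 51, 98 and 38 reads, also highest in eGFP and called above Bulk in all 3. LINC00997 held 40, 49, 52 and 21 reads, and was lowest in Violet. C10orf91 held 147, 85, 54 and 113 reads, lowest in eGFP. LINC00342, with 305, 351, 238 and 482 reads, was the best covered of the 6, highest in Violet and lowest in eGFP, and shares 47.6% of its 31-base words with other genes.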

How the data were processed

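RNA from 4 sorted samples, 1 per group, was analysed. The deposited count table holds raw read counts per gene, per the file headers, and the FPKM table was made by the authors from those counts. HISAT2 2.0.5 and featureCounts 1.5.0-p3 are named in the submitters' processing notes. Strand setting, genome build and handling of multi-mapping reads are not given in the sources used here. Gene lengths of all 281 members equal the exonic bases of GENCODE release 29 (GRCh38). Coordinates are those of the table, 1-based.

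Genes with a mean of at least 1 CPM were tested (14585). Libraries were TMM-scaled (edgeR 4.0.16, R 4.3.3), and log2 ratios used a prior count of 2. The quasi-likelihood test of edgeR cannot be run on 1 library per group. The reads of each of the 6 pairs of libraries were therefore compared with an exact binomial test (SciPy 1.17.1). It was tried on simulated counts that held counting error only, so that trial says nothing about variation between cultures or sorts. Intervals are Clopper-Pearson intervals of the scaled read ratio, without the prior count.

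Members and lists were chosen with earlier results of these data known. Named are the members on role lists, the 8 highest by mean FPKM, the 10 with the largest smallest ratio among those called higher in all 3 libraries, likewise those called lower, members called between slow-cycling libraries and 3 rows either side of 2 CPM. Alternatives were library-size and DESeq2 1.42.0 scaling, a prior count of 0.5, log2(FPKM + 1), no filter, a 10 CPM filter, an edgeR exact test with an assumed variation, other member rules and groups from the treatment field.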

Additional observations from a re-analysis of the deposited data

Results flagged for a closer look

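Members that differed between the slow-cycling libraries themselves, by the binomial test between those libraries with its 2-fold threshold, are listed with their log2 ratios. FAM157C was lower in Claret than in Violet (-1.90) and lower in eGFP than in Violet (-1.16). LINC02475 was lower in Claret than in eGFP (-1.61). AL031118.1 was lower in Claret than in eGFP (-1.01) and higher in eGFP than in Violet (1.31). LINC00997 was higher in Claret than in Violet (1.05) and higher in eGFP than in Violet (1.22). C10orf91 was lower in eGFP than in Violet (-1.05), as was LINC00342 (-1.03). With 1 library per sort, variation between cultures or sorts and a difference between the populations cannot be told apart. With the edgeR exact test and an assumed coefficient of variation of 0.2, 0 members were called between slow-cycling libraries.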

How the results depend on the processing

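Scaling by library size, a prior count of 0.5, no filter on low counts, equal weight of Bulk and the slow-cycling libraries in the member rule, a correction for GC content and leaving out members that share at least 50% of their 31-base words kept every count of calls within 1.5 times. The last 2 were chosen after seeing the data. DESeq2 size factors moved 1 count, to 1 member called between Claret and eGFP. The GC correction turned the log2 ratio of CYTOR, eGFP against Bulk, to 0.0071, and put MIRLET7BHG in Claret under the threshold (0.93) and LINC-PINT (1.04) and C10orf91 (-1.10) in Claret over it. Library size alone put 5 values over the threshold: NEAT1 (1.03), BX640514.2 (1.03) and MIR503HG (1.03) in Violet, and LINC-PINT (1.02) and AP005233.2 (1.002) in Claret.

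Values below are in the order Claret, eGFP, Violet, and for the edgeR exact test each library is named. For that test, the counts higher in eGFP and lower in Violet stayed within 1.5 times and are left out. On the log2(FPKM + 1) scale, which understates low genes, 31, 31 and 27 members were at least 2-fold higher and 2, 5 and 5 lower, 21 and 2 in all 3 (2.79% and 3.71% of all genes), with medians of 0.27, 0.24 and 0.32, and 0, 0 and 0 passed between slow-cycling libraries. A 10 CPM filter left 66 members, with 21, 18 and 21 higher and 1, 1 and 2 lower, 17 and 1 in all 3 (4.97% and 5.42% of the genes left), and 0 called between Claret and either other library and 1 between eGFP and Violet. An edgeR exact test with an assumed coefficient of variation of 0.2 gave 45 higher and 4 lower in Claret, 7 lower in eGFP, 46 higher in Violet, 35 and 4 in all 3 (4.83% and 3.34% of all genes), and 0 in each pair of slow-cycling libraries. The 120 members at 5 CPM had 32, 31 and 33 higher and 4, 5 and 4 lower, 27 (22.5%) and 3 in all 3. The 125 that overlap no gene had 35, 36 and 38 higher and 5, 7 and 5 lower, 30 (24.0%) and 4 in all 3. These last counts are smaller because fewer members entered.

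With groups from the treatment field, 8, 1 and 2 members were higher and 82, 1 and 3 lower, 0 and 1 in all 3, and the medians turned to -0.56, -0.047 and -0.076, because another library then stands for Bulk. No paired analysis was possible because each group has 1 library. Members near 2 CPM rest on few reads, which limits what can be called there.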
